A study of Mus musculus with 12 samples.

Results

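The genes described here encode the machinery of RNA polymerase I, matched by symbol to the gene names of the deposited table, and all 10 of the listed genes were found among 49585 genes in the count files. They are the polymerase subunits Polr1a, Polr1b, Polr1c, Polr1d and Polr1e, the selectivity factor 1 (SL1) parts Taf1a, Taf1c and Taf1d, the rDNA binding factor Ubtf and the initiation factor Rrn3. Total cytoplasmic RNA and ribosome protected fragments (RPF), the stretches of mRNA that ribosomes shield from nuclease, were sequenced from CD4 T cells of control mice (Rnmt fl/fl CD4cre-, 3 replicates) and Rnmt cKO mice (Rnmt fl/fl CD4cre+, 3 replicates), which gave 12 libraries. Both genotypes were female and carried the floxed Rnmt allele, which flanks exon 3, and the CD4 promoter drives Cre from the double-positive thymocyte stage, so that the deletion is not restricted to mature CD4 cells. Naive CD4 T cells of the lymph nodes were cultured for 20 h on plates coated with antibodies to CD3 (5 ug/ml) and CD28 (1 ug/ml), and 0.1 mg/ml cycloheximide was added 1 min before lysis in every group. RNMT methylates the guanosine cap of mRNA, and the comparison between genotypes asks how its loss changes RNA levels and translation in activated T cells.

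RNA polymerase I transcribes the ribosomal DNA repeats in the nucleolus into the precursor of most ribosomal RNA. Ubtf covers the repeats, SL1, which holds the TATA binding protein and the TAF1 proteins, binds the promoter, and Rrn3 brings the polymerase to it. T cells enlarge and raise their output of ribosomal RNA when they are activated, and this synthesis is a main consumer of their resources.

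A total RNA library held 15079703 to 22629563 reads on genes, and an RPF library 4123271 to 10661356, with Rnmt cKO replicate 3 the shallowest RPF library. The polymerase I genes held between 353 counts (Taf1a) and 9706 counts (Taf1d) in a total RNA library and between 85 counts (Taf1a) and 3914 counts (Ubtf) in an RPF library. The standard error of the RPF log2 fold change was also largest for Taf1a, at 0.16. It was 0.13 when control replicate 2 was left out, and 0.17 when the library with 85 counts, Rnmt cKO replicate 3, was left out. All 10 genes passed the filter on low counts in both kinds of library. Rnmt itself, which checks the labels, fell from 94.6 ± 0.753 to 30.7 ± 1.56 CPM (counts scaled to the library size; SD, n = 3) in total RNA and from 97.0 ± 8.27 to 10.2 ± 0.496 CPM (SD, n = 3) in RPF. Every CPM value given here is scaled by edgeR's TMM factors and is therefore a level relative to the other genes sequenced. These values carry no measure of mRNA per cell, so that a rise in CPM, above all a small one, need not be a rise per cell. In such bulk samples fewer cells of a type and less RNA per cell cannot be told apart.

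In total RNA, 7 of the 10 polymerase I genes rose in Rnmt cKO cells, 2 fell and Ubtf did not pass the test. The rises were those of Polr1a, Polr1b, Polr1d, Polr1e, Taf1a, Taf1c and Rrn3, from 0.21 (Rrn3) to 0.97 (Polr1b) on the log2 scale, and the falls were those of Polr1c (-0.42) and Taf1d (-0.93). The median log2 fold change of the 10 genes was 0.31, against a median of -0.0037 over all 11519 genes tested. Calls were common in this comparison, as 26.3% of all genes tested rose and 28.0% fell at an adjusted p under 0.05 (from the quasi-likelihood test of edgeR, adjusted over all genes by the Benjamini-Hochberg method, as in all that follows). The genotypes did not overlap for 9 of the 10 genes, and for 62.3% of all genes tested. Leaving out each replicate in turn left 2 falls and 5 to 7 rises, with the fewest rises, 5, without control replicate 1, when Taf1c and Rrn3 were no longer called.

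**Figure D1:**
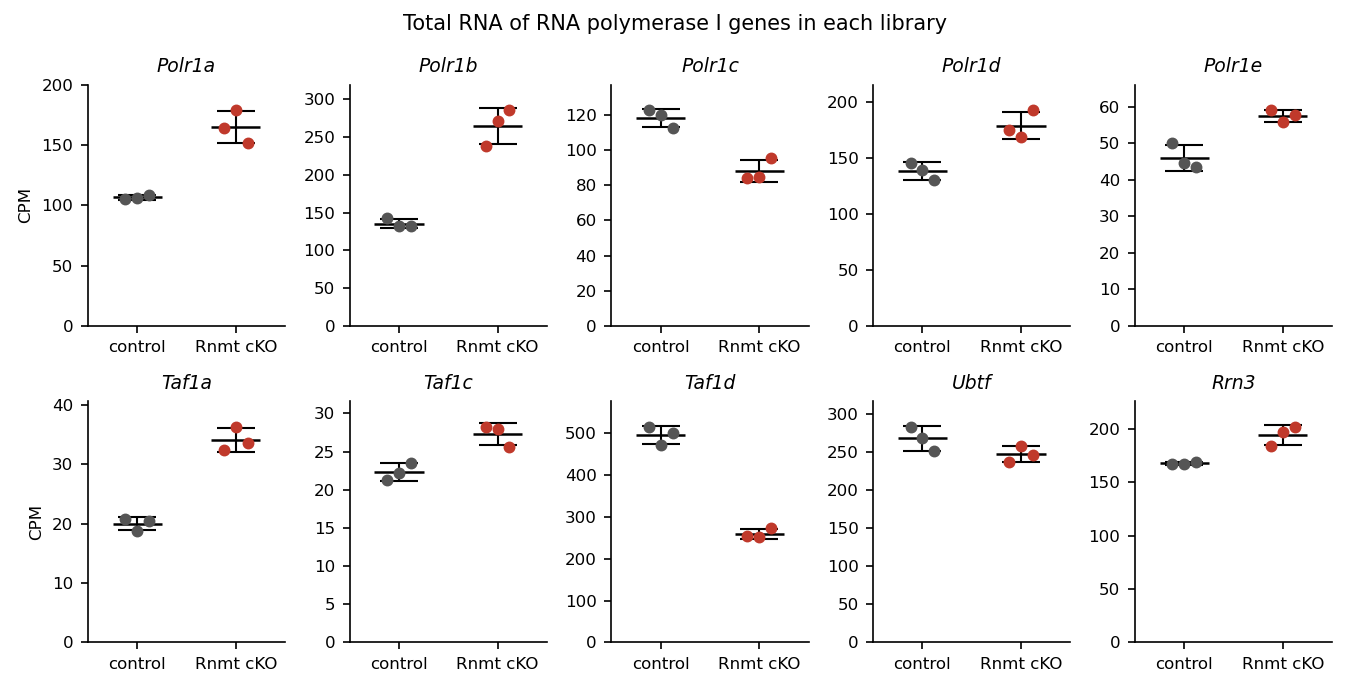
Total RNA of each polymerase I gene in CPM (y axis, from 0) in the 3 control (grey) and 3 Rnmt cKO (red) libraries, with the mean and SD as black bars. Taf1d and Polr1c lie lower in every Rnmt cKO library, Ubtf overlaps between genotypes, and the other 7 genes lie higher in every Rnmt cKO library.

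Among the 5 Polr1 genes described here, the largest rises were those of the catalytic pair. Polr1a, the largest subunit, which lies on chromosome 6 of GRCm38 from 71909053 to 71984935 (plus strand), stood at 105, 107 and 109 CPM in the control total RNA libraries and at 164, 179 and 152 CPM in those of Rnmt cKO. All Rnmt cKO libraries lay above all controls, and the log2 fold change was 0.63 (standard error, SE, 0.07; adjusted p = 0.00018). Polr1b, the second largest subunit, which forms the active centre together with Polr1a, lies on chromosome 2 from 129100995 to 129126594 (plus strand) and stood at 143, 132 and 132 CPM in controls and at 238, 271 and 285 CPM in Rnmt cKO cells. Its RNA rose by 95.5%, with no overlap and a log2 fold change of 0.97 (SE 0.08, adjusted p = 4.9e-05).

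In RPF, Polr1b showed no difference beyond the spread of the libraries. Polr1b gave 236, 221 and 218 CPM of RPF in controls and 218, 256 and 211 CPM in Rnmt cKO cells. The genotypes overlapped, and the log2 fold change in RPF was 0.02 (SE 0.08, adjusted p = 0.85). The RPF of Polr1a were 122, 138 and 141 CPM in controls and 165, 184 and 147 CPM in Rnmt cKO cells, all above the controls, with replicate 3 only slightly so. Its log2 fold change of 0.31 (SE 0.09, adjusted p = 0.038) lost the call, with adjusted p between 0.057 and 0.13, when any control or Rnmt cKO replicate 1 or 2 was left out, and also with the counts of both strands (adjusted p = 0.062).

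Translational efficiency (TE) was taken as the ratio of RPF to total RNA, and its change as the difference between the genotype effects in the 2 kinds of library, fitted in 1 model over all 12 libraries. For Polr1b the ratio was 1.65, 1.68 and 1.65 in the control pairs of libraries and 0.915, 0.944 and 0.741 in the Rnmt cKO pairs. Every Rnmt cKO pair lay below every control, and TE fell by 0.94 on the log2 scale (SE 0.12, adjusted p = 0.00027), or by 48.0%. This call held under each of the 15 alternatives, from -1.19 to -0.84. For Polr1a the ratio was 1.16, 1.30 and 1.30 in controls and 1.01, 1.03 and 0.967 in Rnmt cKO cells, without overlap. The log2 change of its TE was -0.32 (SE 0.12, adjusted p = 0.13), which did not pass, whereas it passed with the total RNA and RPF libraries of each replicate paired by a replicate block (-0.32, adjusted p = 0.038).

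**Figure D2:**
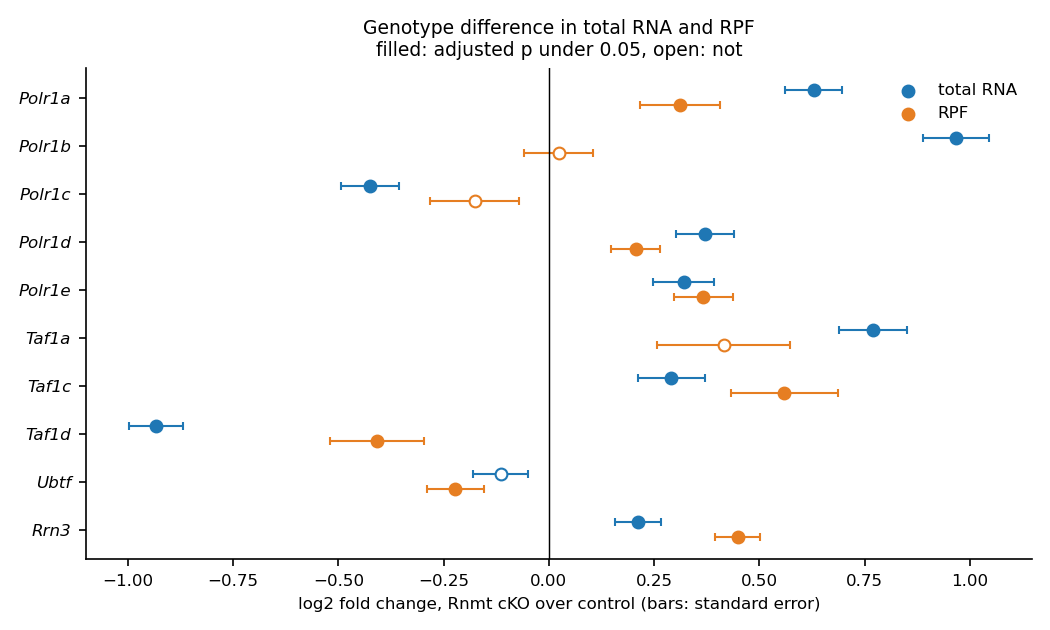
Log2 ratio of Rnmt cKO to control (x axis) for each polymerase I gene in total RNA (blue) and RPF (orange), with bars for the standard error and filled points for an adjusted p under 0.05. The points of Polr1b lie farthest apart, at 0.97 in total RNA and 0.02 in RPF, and those of Taf1d lie at -0.93 and -0.41.

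Polr1c and Polr1d encode the subunits that RNA polymerase I shares with RNA polymerase III, where they form a heterodimer on which the enzyme assembles. Polr1c (chromosome 17, 46243920 to 46248054, minus strand) stood at 122, 120.0 and 113 CPM in control total RNA and at 84.3, 84.6 and 95.5 CPM in Rnmt cKO cells, all below the controls. Its log2 fold change was -0.42 (SE 0.07, adjusted p = 0.0013). Polr1d (chromosome 5, 147077050 to 147111597, plus strand) went the other way, from 145, 139.7 and 130.3 CPM to 175, 169 and 193 CPM, without overlap, and its log2 fold change came to 0.37 (SE 0.07, adjusted p = 0.0025). Per kb of exon, the ratio of Polr1c to Polr1d RNA was 1.41 ± 0.0186 in controls and 0.810 ± 0.0158 in Rnmt cKO cells (SD, n = 3), so that the partner with the higher level changed from Polr1c to Polr1d. In RPF per kb of coding sequence the ratio was 0.515 ± 0.0723 in controls and 0.392 ± 0.0463 in Rnmt cKO cells (SD, n = 3), with Polr1d the higher partner in both. The ratios were not tested.

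In RPF, the difference for Polr1c was within the spread of the libraries. Its RPF were 96.9, 87.1 and 108 CPM in controls and 83.6, 96.3 and 77.3 CPM in Rnmt cKO cells, with an overlap and a log2 fold change of -0.18 (SE 0.11, adjusted p = 0.24). For Polr1d they were 141, 139 and 131 CPM in controls and 158, 157 and 159 CPM in Rnmt cKO cells, all above the controls. The log2 fold change of Polr1d in RPF was small, 0.21 (SE 0.06, adjusted p = 0.029), and it was no longer called when any of the 6 libraries was left out (adjusted p from 0.054 to 0.10), by DESeq2 (adjusted p = 0.058) or with no filter on low counts (adjusted p = 0.24). TE passed the test for neither gene, with log2 changes of 0.25 (SE 0.13, adjusted p = 0.26) for Polr1c and -0.16 (SE 0.09, adjusted p = 0.29) for Polr1d.

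Polr1e (chromosome 4, 45018583 to 45036565, plus strand) encodes a subunit of the heterodimer particular to RNA polymerase I, which takes part in initiation and elongation. Its total RNA was 50.0, 44.6 and 43.4 CPM in controls and 59.0, 55.8 and 57.6 CPM in Rnmt cKO cells, and its RPF were 71.5, 73.0 and 75.5 CPM against 94.2, 99.99 and 88.8 CPM. Neither overlapped, and the log2 fold changes of Polr1e were nearly equal, at 0.32 in total RNA (SE 0.07, adjusted p = 0.0065) and 0.37 in RPF (SE 0.07, adjusted p = 0.0061). The log2 change of its TE was 0.05 (SE 0.10, adjusted p = 0.81).

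The SL1 genes moved in opposite directions. Taf1a (chromosome 1, 183388981 to 183410198, plus strand) stood at 20.8, 18.7 and 20.4 CPM in control total RNA and at 32.4, 36.3 and 33.5 CPM in Rnmt cKO cells. Every Rnmt cKO library was higher, with a log2 fold change of 0.77 (SE 0.08, adjusted p = 0.00016). In RPF, Taf1a gave 19.7, 13.6 and 18.0 CPM in controls and 22.2, 25.3 and 20.9 CPM in Rnmt cKO cells. The RPF groups did not overlap, but the log2 fold change of 0.41 (SE 0.16, adjusted p = 0.079) did not pass.

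Taf1c (chromosome 8, 119597871 to 119605222, minus strand) stood at 21.2, 22.1 and 23.6 CPM in control total RNA and at 28.2, 28.0 and 25.7 CPM in Rnmt cKO cells. The rise in total RNA was 0.29 on the log2 scale (SE 0.08, adjusted p = 0.015), and it lost the call without control replicate 1 (adjusted p = 0.07) or 2 (adjusted p = 0.052). Its RPF were 42.2, 31.2 and 43.8 CPM in controls and 54.8, 60.0 and 58.6 CPM in Rnmt cKO cells. All were above the controls, and the log2 fold change in RPF was 0.56 (SE 0.13, adjusted p = 0.013).

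Taf1d (chromosome 9, 15306214 to 15316991, plus strand), the third SL1 part, had the largest fall of the group. Its total RNA was 515, 472 and 501 CPM in controls and 253, 252 and 274 CPM in Rnmt cKO cells. The libraries of each genotype lay close together and far from those of the other, with a log2 fold change of -0.93 (SE 0.07, adjusted p = 2.8e-05), and its RNA fell by 47.6%. Its RPF were 47.5, 57.7 and 51.4 CPM in controls and 39.8, 34.96 and 43.8 CPM in Rnmt cKO cells, without overlap. The fall in RPF was smaller, -0.41 on the log2 scale (SE 0.11, adjusted p = 0.026), and it lost the call without control replicate 2 or 3 or Rnmt cKO replicate 1 or 2 (adjusted p from 0.059 to 0.092).

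The ratio of RPF to total RNA of Taf1d was 0.0923, 0.122 and 0.102 in controls and 0.157, 0.139 and 0.160 in Rnmt cKO cells, in all pairs far below 1. TE of Taf1d rose by 0.52 on the log2 scale (SE 0.13, adjusted p = 0.020), and the Rnmt cKO pairs all lay above the controls. The call was lost without control replicate 1 (adjusted p = 0.12), control replicate 3 (adjusted p = 0.077) or Rnmt cKO replicate 1 (adjusted p = 0.11). The other SL1 genes had TE changes that did not pass, -0.36 for Taf1a (SE 0.17, adjusted p = 0.22) and 0.27 for Taf1c (SE 0.16, adjusted p = 0.32).

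Taf1d has the most annotated transcripts of the 10 genes. The full GENCODE vM21 set lists 16 Taf1d transcripts, of which 5 are protein-coding, 4 are marked for nonsense-mediated decay and 6 retain an intron, and its locus holds 8 snoRNA genes, whose products mostly guide RNA modification. All 8 of these snoRNA genes were listed at 0 counts in all 12 libraries, and all 8 lie inside an exon of some Taf1d transcript of the full set. Whether the authors counted on the basic set named in their methods or on a full set was not settled by the files, and reads that fall in 2 overlapping exons are given to neither gene. Counts of Taf1d do not say which of its transcripts gave the reads, and whether the non-coding transcripts take part in the fall or in the low ratio of RPF to total RNA was not tested. For the other members, overlapping genes on the opposite strand were counted apart, and the 1 overlapping gene on the same strand, a Rps13-ps4 pseudogene in Taf1c, held 1 to 3 counts in the control and 2 to 5 in the Rnmt cKO total RNA libraries, and 1 to 8 and 2 to 4 counts in those of RPF.

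Ubtf and Rrn3 encode the factors that keep the repeats open and carry the polymerase to the promoter. Ubtf (chromosome 11, 102304560 to 102319742, minus strand) stood at 283, 269 and 251 CPM in control total RNA and at 237, 258 and 246 CPM in Rnmt cKO cells. These overlapped, with a log2 fold change of -0.11 (SE 0.07, adjusted p = 0.17). In RPF, Ubtf gave 368, 403 and 358 CPM in controls and 306, 329.7 and 331 CPM in Rnmt cKO cells, all below the controls. The log2 fold change in RPF was -0.22 (SE 0.07, adjusted p = 0.038), and it was called without control replicate 3 but not without any other single library (adjusted p from 0.062 to 0.13).

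Rrn3 (chromosome 16, 13780708 to 13814839, plus strand) rose in both kinds of library. Its total RNA was 167, 167 and 169 CPM in controls and 184, 197 and 202 CPM in Rnmt cKO cells, and its RPF were 171, 165 and 169 CPM against 230.3, 235 and 223 CPM. Every Rnmt cKO library was above every control in both. The log2 fold change of Rrn3 was 0.21 in total RNA (SE 0.05, adjusted p = 0.012; adjusted p = 0.052 without control replicate 1) and 0.45 in RPF (SE 0.05, adjusted p = 0.00082), and the RPF call held under each of the 14 alternatives. The ratio of RPF to total RNA was 1.02, 0.989 and 0.999 in controls and 1.25, 1.19 and 1.11 in Rnmt cKO cells, without overlap, but the log2 change in TE of 0.24 (SE 0.08, adjusted p = 0.071) did not pass. TE did not pass for Ubtf either (-0.11, SE 0.10, adjusted p = 0.55).

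**Figure D3:**
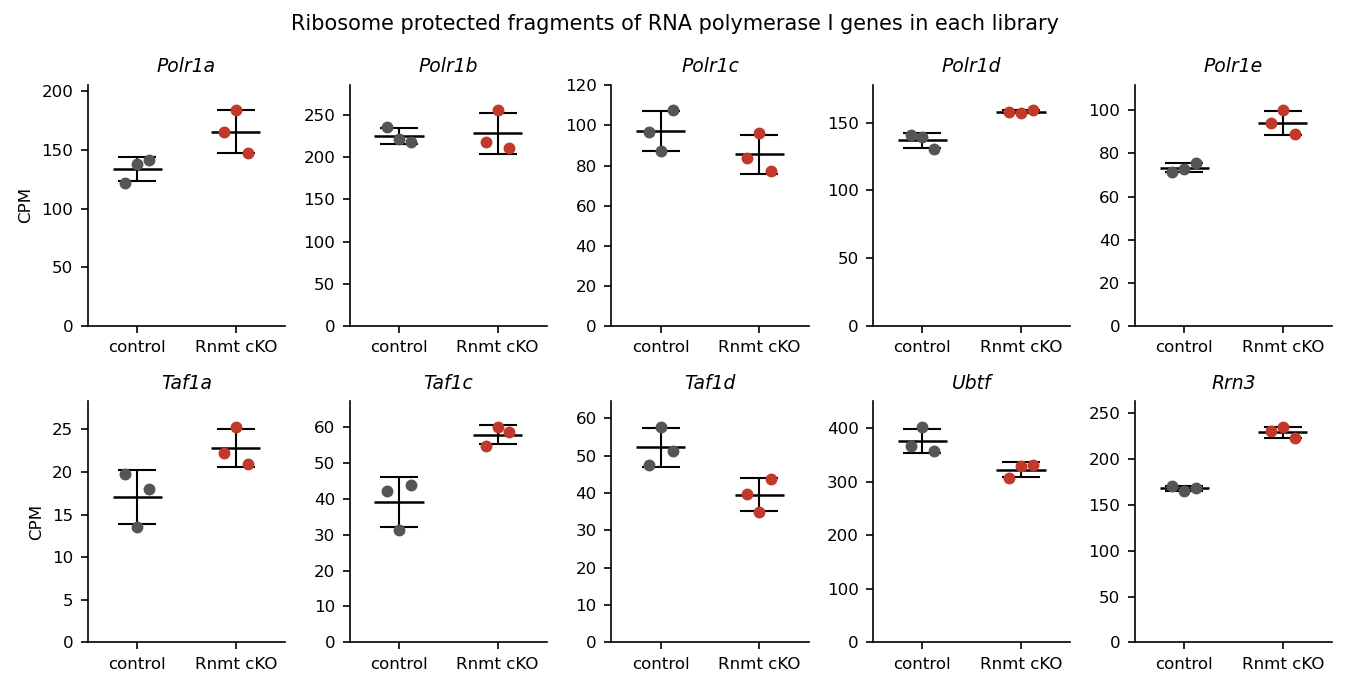
RPF of each polymerase I gene in CPM (y axis, from 0) in the 3 control (grey) and 3 Rnmt cKO (red) libraries, with the mean and SD as black bars. Rrn3 is separated most clearly, at 165 to 171 CPM in controls and 223 to 235 CPM in Rnmt cKO cells, while Polr1b and Polr1c overlap between genotypes.

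Over the group, 5 genes rose in RPF (Polr1a, Polr1d, Polr1e, Taf1c and Rrn3) and 2 fell (Taf1d and Ubtf), where 14.1% of 11428 genes rose and 15.7% fell. The median log2 fold change of the polymerase I genes in RPF was 0.26, against 0.0080 over all genes tested. Without overlap between genotypes were 8 of the 10, and 46.5% of all genes tested. The RPF counts were lower when 1 replicate was left out, at 3 or 4 rises and 0 or 1 falls. Calls over all genes fell as well, from 1612 rises to between 1085 and 1414, and from 1796 falls to between 1264 and 1526. Polr1d lost its call with each replicate left out, while its log2 fold change stayed between 0.17 and 0.22. Polr1a lost its call with 5 of the 6 left out in turn, whereas Rrn3, Polr1e and Taf1c kept their calls with each replicate left out. In TE, 1 polymerase I gene fell (Polr1b) and 1 rose (Taf1d), where 6.57% of 10668 genes fell and 3.24% rose. With total RNA and RPF paired by a replicate block, 2 fell (Polr1b and Polr1a) and 1 rose, against 777 falls and 426 rises over all genes. The TE median of the 10 genes without the block was -0.03, against 0.04 over all. The groups did not overlap in TE for 6 of the 10 genes and for 31.5% of all genes.

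**Figure D4:**
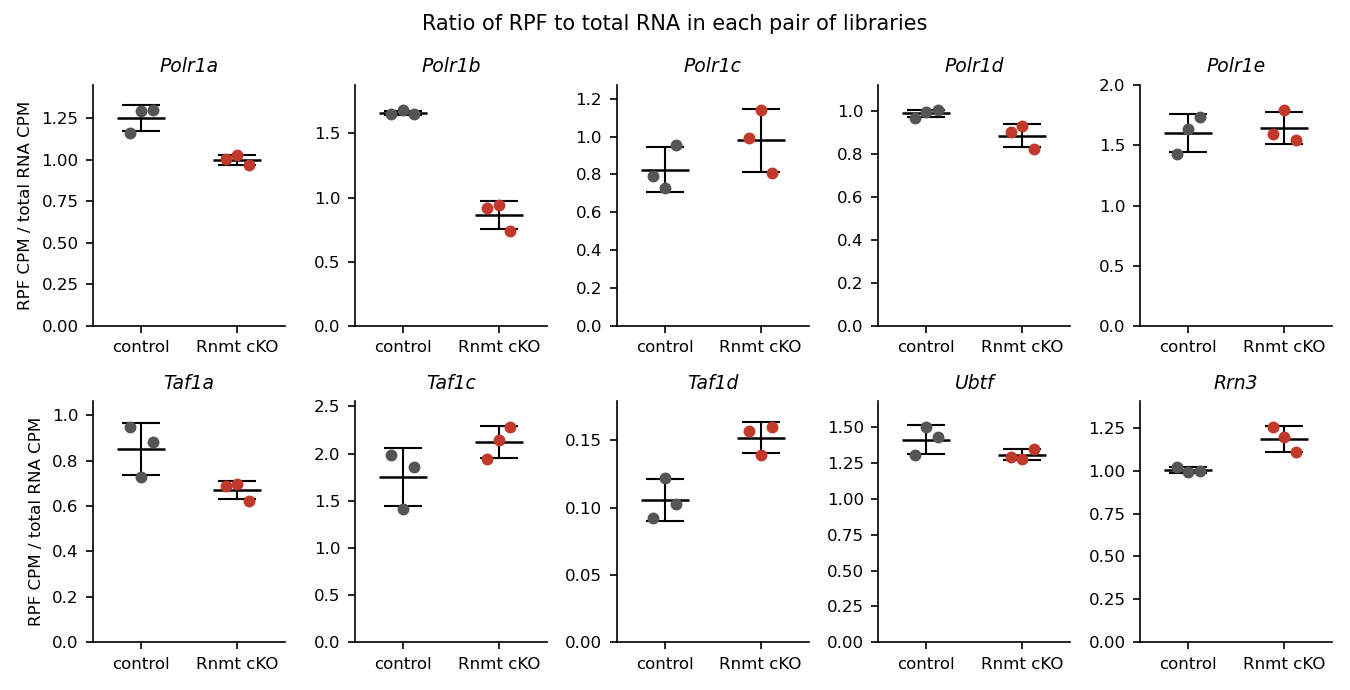
Ratio of RPF to total RNA (CPM over CPM, y axis, from 0) for each polymerase I gene in the 3 control (grey) and 3 Rnmt cKO (red) pairs of libraries of the same replicate number, with the mean and SD as black bars. Polr1b falls from about 1.66 to 0.867 and Taf1d rises from 0.106 to 0.152.

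The levels of the 10 genes were compared with each other only per kb. In control total RNA, Taf1d was highest at 397 ± 17.5 CPM per kb (SD, n = 3), followed by Polr1c at 87.6 ± 3.84, Polr1d at 62.4 ± 3.44, Rrn3 at 46.8 ± 0.352, Ubtf at 44.3 ± 2.63 and Polr1b at 29.2 ± 1.41 CPM per kb. Lower levels were those of Taf1a with 13.6 ± 0.766, Polr1e with 13.3 ± 1.01, Polr1a with 11.6 ± 0.212 and Taf1c with 6.89 ± 0.364 CPM per kb (SD, n = 3), against a median of 9.21 CPM per kb over genes tested. Neighbours in this order overlapped in Rrn3 and Ubtf and in Taf1a and Polr1e, while the other neighbours did not. In Rnmt cKO cells, Taf1d stood at 208 ± 9.85 CPM per kb, the highest by the basic annotation, and Polr1b passed Rrn3 and Ubtf to reach 57.1 ± 5.20 CPM per kb, overlapping with Rrn3 (54.2 ± 2.65 CPM per kb). The place of Taf1d rests on the exon length, 1251 bases in the basic annotation. With the 8949 bases of all its annotated transcripts, its level in controls was 55.4 ± 2.45 CPM per kb, next to 51.9 ± 2.28 for Polr1c with all of its exons. In Rnmt cKO cells Taf1d then stood at 29.0 ± 1.38 CPM per kb, below Polr1d (58.9 ± 3.998), Polr1b (45.6 ± 4.15), Rrn3 (45.0 ± 2.20), Polr1c (38.7 ± 2.81) and Ubtf (37.7 ± 1.60), so that its first place in these cells was lost. With all exons, Taf1a in controls stood at 8.29 ± 0.468 CPM per kb, below Polr1e (11.8 ± 0.896) and next to Polr1a (8.99 ± 0.165).

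In RPF per kb of coding sequence the order was another one. Polr1d was highest in controls at 182 ± 7.27 CPM per kb, followed by Ubtf with 156 ± 9.70, Polr1c with 93.6 ± 9.82 and Rrn3 with 85.5 ± 1.38 CPM per kb (SD, n = 3), of which Polr1c and Rrn3 overlapped. Taf1d took the sixth place at 53.3 ± 5.26 CPM per kb, overlapping with Polr1e at 49.5 ± 1.38. Between the SL1 genes, the ratio of Taf1d to Taf1a in total RNA per kb was 29.1, 29.7 and 28.9 in controls and 9.20, 8.18 and 9.62 in Rnmt cKO cells by the basic annotation. With the exons of all annotated transcripts it was 6.67, 6.80 and 6.61 in controls and 2.11, 1.87 and 2.20 in Rnmt cKO cells. The same ratio in RPF was 3.34, 5.90 and 3.95 in controls and 2.48, 1.92 and 2.90 in Rnmt cKO cells. The groups did not overlap in either kind, and these ratios were not tested.

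Transcripts that start with C and a run of pyrimidines (the TOP motif, by which ribosomal protein mRNAs are known) are of interest in these cells, so the annotated starts were read. RefSeq promoter windows on GRCm38.p6, of 300 bases each, were matched for 10 of 10 genes and gave 17 windows. C followed by 4 pyrimidines, searched from the start base on the strand of the gene, was found in 0 of 17 member windows and in 2.51% of all 32851 windows. Within 10 bases of the start it was found in 6 of 17, and in 30.7% of all windows. The starts of the 2 genes that fell and of the catalytic pair that rose are shown, with 15 bases before the start in lower case and the first 15 transcribed bases in capitals.
Taf1d (chr9:15306199-15306228, plus strand): ccaacgtgtactcacGCGAGATTTCGTCCT
Polr1c (chr17:46248031-46248060, minus strand): ggggcaagatctcgcGACATTCAAGATTGC
Polr1b (chr2:129100981-129101010, plus strand): ttcccagaaggccacGGGGTAGGGTGGCTG
Polr1a (chr6:71909038-71909067, plus strand): cggttctcgcacgcaAGCGCAGTGGAAAAA
The annotated first base was G for Taf1d, Polr1c and Polr1b and A for Polr1a. Starts used in these cells and binding of LARP1, the factor known to bind TOP mRNAs, were not analysed here, so that nothing about either follows from these windows, and the letters do not show how an mRNA is translated.

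The E-box CACGTG, which reads the same on both strands and is known as the letters that Myc and its partners bind, was found in the window of Rrn3 and of no other polymerase I gene, and in 7.15% of all windows. Of the 17 member windows 1 held it, or 5.88%, so that the share in the group was near that of all windows. The Rrn3 window held 2 copies, at 215 and 48 bases before the start, and 0.594% of all windows held 2 or more copies. The stretch from 20 bases before the first copy to 20 bases after the second is shown with both in capitals.
Rrn3 (chr16:13780464-13780676, plus strand): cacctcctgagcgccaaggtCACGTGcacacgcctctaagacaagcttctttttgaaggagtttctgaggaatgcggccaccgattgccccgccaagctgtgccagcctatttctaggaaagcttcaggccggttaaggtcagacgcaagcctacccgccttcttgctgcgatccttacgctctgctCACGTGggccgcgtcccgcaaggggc
A match of letters is a description of the sequence, and binding was not measured here.

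The remaining genes of the machinery were the other polymerase I subunits, Taf1b and Tbp, which made a list of 10. In total RNA, 3 of these 10 rose, near the 26.3% of all genes tested. Cd3eap, the partner of Polr1e in its heterodimer, rose from 31.9 ± 3.27 to 57.9 ± 6.09 CPM (SD, n = 3; log2 fold change 0.86, adjusted p = 0.00032). Twistnb, a subunit of the stalk, rose by 0.63 (adjusted p = 0.00024) and Polr2l, a small subunit common to all 3 polymerases, by 0.47 (adjusted p = 0.021). The level of Polr2l was low, at 5.74 ± 0.764 CPM in controls and 7.92 ± 0.704 CPM in Rnmt cKO cells (SD, n = 3). In RPF, 2 rose (14.1% of all genes tested), Twistnb by 0.31 (adjusted p = 0.030) and Tbp by 0.22 (adjusted p = 0.048), while Cd3eap did not pass. TE fell for 1 gene (6.57% of all genes tested), Cd3eap, with a ratio of 1.83 ± 0.315 in controls and 1.04 ± 0.0971 in Rnmt cKO cells (SD, n = 3; log2 change -0.80, adjusted p = 0.0027), in the direction of Polr1b. The median of this list was 0.15 for total RNA, 0.04 for RPF and -0.07 for TE.

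Genes of the other polymerases were counted beside the shares of all genes tested, of which 26.3% rose and 28.0% fell in total RNA, 14.1% rose and 15.7% fell in RPF, and 6.57% fell in TE. Of 11 subunits of RNA polymerase III, which makes tRNA and 5S rRNA, 6 rose and 2 fell in total RNA (median 0.24). Among them were Polr3d at 1.07 (adjusted p = 4e-05), Polr3e at 0.57 (adjusted p = 0.00014) and Polr3gl at -1.43 (adjusted p = 0.00033). Polr3gl was low, at 5.62 ± 0.480 CPM in controls and 2.10 ± 0.405 CPM in Rnmt cKO cells (SD, n = 3). Of the 10 initiation factors of RNA polymerase III and the Pol III repressor Maf1, taken as a list of 11, 6 rose (median 0.28). Of 8 subunits of RNA polymerase II 4 rose (median 0.42). In RPF, 2 Pol III subunits rose and 2 fell, and 1 Pol III factor (Gtf3a, 0.25, adjusted p = 0.047) and 1 Pol II subunit (Polr2m, 0.30, adjusted p = 0.028) rose. In TE, 2 Pol III subunits (Polr3d, -0.85, adjusted p = 0.0035; Polr3b, -0.46, adjusted p = 0.0028), 1 Pol III factor (Gtf3c1, -0.47, adjusted p = 0.024) and 3 Pol II subunits fell. Whether the rises are particular to polymerase I was not tested, and the median of the Pol I genes in total RNA lay between those of the other lists.

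Among 16 regulators of rDNA and the nucleolus, 10 rose and 2 fell in total RNA (median 0.39), where 26.3% of all genes tested rose and 28.0% fell. Myc, a transcription factor that raises ribosome production, rose from 54.3 ± 11.6 to 161 ± 49.7 CPM (SD, n = 3; log2 fold change 1.57, adjusted p = 0.00095), Mybbp1a, a nucleolar protein, by 0.77 (adjusted p = 0.0061) and Ncl, nucleolin, by 0.73 (adjusted p = 0.016), although its genotypes overlapped. In RPF, 3 rose and 2 fell (median -0.03), near the 14.1% and 15.7% of all genes tested, with Myc at 1.08 (adjusted p = 0.00028), Kdm2b at 0.68 (adjusted p = 0.00037) and Npm1, nucleophosmin, at -0.62 (adjusted p = 0.00031). TE fell for 4 (median -0.21), where it fell for 6.57% of all genes tested, with Ddx21, a nucleolar helicase, at -1.20 (adjusted p = 0.00019), Ncl at -0.86 (adjusted p = 0.036) and Tcof1, a partner of polymerase I in the nucleolus, at -0.50 (adjusted p = 0.013).

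**Figure D5:**
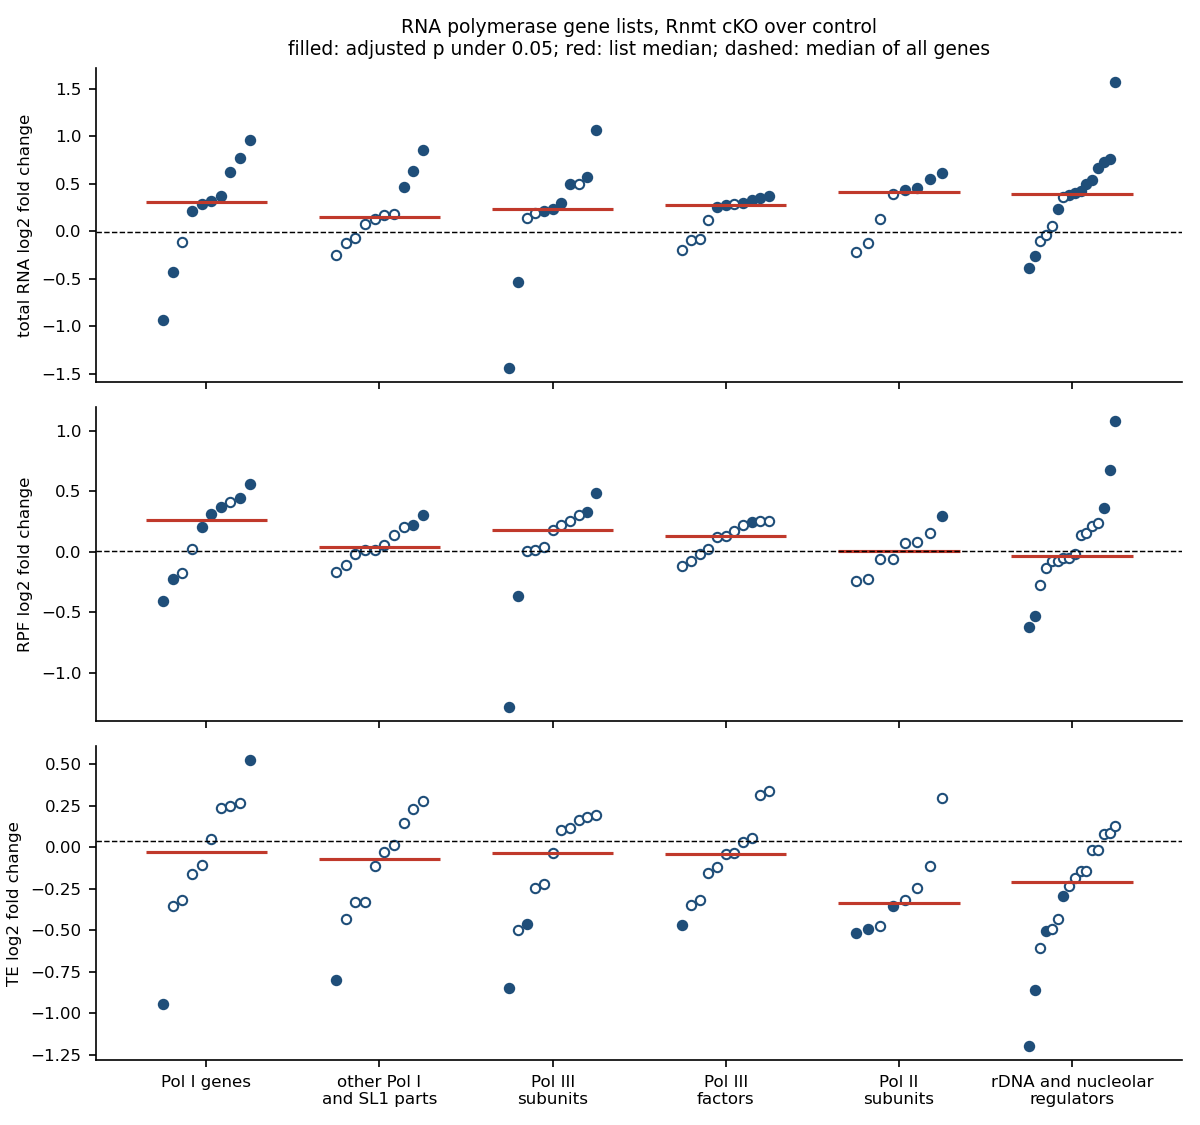
Log2 ratio of Rnmt cKO to control (y axis) for each gene of the 6 lists (x axis) in total RNA (top), RPF (middle) and TE (bottom), with filled points for an adjusted p under 0.05, red lines for list medians and dashed lines for the median of all genes. The Pol I genes have a total RNA median of 0.31, an RPF median of 0.26 and a TE median of -0.03.

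Markers of T cells and of other cells were measured beside these results. CD4 T cell markers summed to 3326 to 3603 CPM in control total RNA and to 2543 to 2890 CPM in Rnmt cKO cells, with Cd28 the most abundant in all 6 libraries and none at 0. Of these 8 markers 4 fell in total RNA, where 28.0% of all genes tested fell, the largest Cd3g (-1.23, adjusted p = 7.5e-05), Lck (-0.90, adjusted p = 3.2e-05) and Cd3d (-0.74, adjusted p = 0.00073), and 4 fell in RPF, where 15.7% of all genes fell. The 2 CD8 markers, which did not pass the test, had sums of 21.4, 21.4 and 41.7 CPM in controls and 26.4, 21.3 and 9.85 CPM in Rnmt cKO cells. The 5 B cell markers summed to 9.55, 6.04 and 33.7 CPM in control total RNA and to 86.4, 104 and 19.2 CPM in Rnmt cKO cells, with none at 0, Ms4a1 the most abundant in 5 of 6 libraries, and Ms4a1 and Cd79b called as higher. In RPF the same B cell sums were 11.7, 8.59 and 41.2 CPM in controls and 128, 141 and 22.1 CPM in Rnmt cKO cells. The 5 myeloid markers summed to at most 1.02 CPM in total RNA and 2.73 CPM in RPF, with Fcer1g called as higher in RPF and up to 4 of the 5 at 0 in a library. The 4 NK markers summed to 3.13 to 4.87 CPM in control total RNA and to 23.3 to 38.6 CPM in Rnmt cKO cells, with 1 of the 4 at 0 in each control. Eomes, also made by activated T cells, was the most abundant and was called as higher in total RNA (3.13, adjusted p = 5.9e-05) and RPF (2.98, adjusted p = 0.00041), as was Klrk1 in total RNA (1.00, adjusted p = 0.042). In RPF the NK sums were 7.70, 4.52 and 14.0 CPM in controls and 55.5, 82.4 and 60.5 CPM in Rnmt cKO cells.

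Rnmt cKO replicate 3 had B cell marker sums within the range of the controls. In contrast, its CD4 sum (2890 CPM in total RNA, 4901 in RPF) and its CD8 sum (9.85 and 15.3 CPM) lay below every control. Its NK sum (23.3 and 60.5 CPM), of which Eomes made 20.5 and 58.1 CPM, lay above every control. With this replicate as the sole Rnmt cKO sample, whose spread is then assumed to be that of the controls, 6 polymerase I genes still rose and 2 fell in total RNA (19.7% and 20.8% of 11119 genes tested), with a median of 0.32, and of the 9 called genes Taf1c alone lost its call. In TE Polr1b was -1.19 (adjusted p = 0.0018), against -0.94 with all replicates, while Taf1d was 0.59 (adjusted p = 0.12), and of 10337 genes 2.84% fell and 0.784% rose. In RPF, Rrn3 was the 1 gene still called (0.40, adjusted p = 0.035), where edgeR called 477 genes higher (4.36%) and 520 lower (4.75%) of 10951. Of the genes no longer called in RPF, Taf1c (0.58) and Polr1d (0.21) kept log2 fold changes as large as with all replicates, while Ubtf (-0.19), Polr1e (0.27), Taf1d (-0.25) and Polr1a (0.14) lay nearer to 0. The RPF median of the polymerase I genes was then 0.17, against 0.26 with all replicates. The part of the marker differences in these results was not tested beyond this.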

How the data were processed

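The members and lists were chosen with earlier results of these data known. The authors sequenced 75 bp paired ends, kept read 2 because read 1 failed, trimmed adapters with Cutadapt, removed rRNA and tRNA reads with Bowtie, aligned to mm10 (GRCm38) with GENCODE vM12 basic annotation by STAR 2.5.2b, and deposited, for each library, whole-number gene counts of the reads that aligned uniquely. The deposited table of normalized signal values per library was used to choose the strand, since the reverse-strand counts gave 1 factor per library for 100% of its genes above 0 (relative tolerance 1e-06). The authors' fold and p-value columns (from edgeR and RiboDiff) were not used.

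Genes with a CPM above 1 in at least 3 libraries of a kind were tested with TMM scaling in edgeR 4.0.16 (R 4.3.3, quasi-likelihood F test). Each edgeR standard error is the absolute log2 coefficient over the square root of the F value of this test. The dispersion behind it draws on all genes, not on the libraries of the gene alone. TE was the genotype by kind interaction, with p-values adjusted over all genes by the Benjamini-Hochberg method (threshold 0.05). Positions, lengths and biotypes came from GENCODE vM21, in which 49326 of 49585 genes were found. The labels give replicates as numbers, and p-values measure the spread between these samples. Unassigned totals were left out, of which unmapped reads made 7.48 to 10.7% of a total RNA library and 26.55 to 33.6% of an RPF library. Reads that aligned to several places made 24.3 to 30.1% and 22.9 to 31.05%. In total RNA they made 28.7 to 30.1% in controls and 24.3 to 27.3% in Rnmt cKO libraries. Reads in no gene made 5.34 to 6.00% and 7.24 to 8.21% of these. Whether these differences between genotypes bear on the results was not tested. Alternatives tried were DESeq2 1.42.0, no TMM, other filters, both strands, protein-coding genes alone, each replicate left out and replicate blocks, and, added after the data were seen, replicate 3 as the sole Rnmt cKO sample. Numbers paired total RNA with RPF of the same genotype (correlation of deviations from group means 0.113 to 0.382 for equal numbers, at most 0.044 for others). Of the 12 pairs of libraries within a group, none was the same within sampling noise (mean chi-square per gene 4.62 to 39.3). The named genes are the 10 members, Rnmt and, of each other list, at most 3 called genes with the largest absolute log2 fold change per comparison. The fits were tested on simulated data. Figures were drawn with matplotlib 3.10.9.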

Additional observations from a re-analysis of the deposited data

Results flagged for a closer look

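Polr1b and Taf1d were picked out because their genotype effect differed between RPF and total RNA by the interaction test over 12 libraries. For Polr1b the effect in RPF minus that in total RNA was -0.94 on the log2 scale (standard error 0.12, adjusted p = 0.00027 from edgeR), with all 3 Rnmt cKO pairs below all 3 controls. For Taf1d it was 0.52 (standard error 0.13, adjusted p = 0.020 from edgeR), with all 3 Rnmt cKO pairs above the controls, and adjusted p ran from 0.0026 to 0.12 over 15 alternatives.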

How the results depend on the processing

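Directions and calls in total RNA were kept for Polr1a, Polr1b, Polr1c, Polr1d, Polr1e, Taf1a and Taf1d under all 14 alternatives. The median of all genes in total RNA was -0.0037 with TMM, 0.033 by library size and 0.0084 by DESeq2. With no filter on low counts, TE rises numbered 214 in place of 346, Rrn3 in total RNA had an adjusted p of 0.051, Polr1d in RPF one of 0.24, and the RPF change of Polr1b turned to -0.011. DESeq2 ended the RPF call of Polr1d (adjusted p = 0.058), and the counts of both strands that of Polr1a (adjusted p = 0.062). With each replicate left out in turn, polymerase I genes that fell in RPF numbered 0 to 1 and those that rose 3 to 4, TE falls numbered 415 to 812 and TE rises 122 to 367 over all genes, polymerase I rises in TE were 0 to 1, the RPF change of Polr1b ran from -0.063 to 0.078, the TE change of Polr1e from -0.042 to 0.11 and the TE median of the group from -0.11 to 0.0046. With Rnmt cKO replicate 3 as the sole Rnmt cKO sample, RPF calls were 520 falls and 477 rises, of which polymerase I genes made 0 and 1, TE calls were 294 and 81 with 0 polymerase I rises, and the changes of Polr1b in RPF (-0.093), Polr1c in TE (-0.045) and Polr1e in TE (-0.068) turned. Paired by a replicate block of genotype and number, 2 polymerase I genes fell in TE (777 falls and 426 rises over all genes), and no other polymerase I call changed. Across genotypes the samples share only a number: deviations of equal numbers correlated from -0.496 to -0.184 in total RNA and from -0.102 to 0.32 in RPF. That replicate block gave 2751 falls and 2455 rises in total RNA, 1636 and 1596 in RPF and 635 and 313 in TE, and Taf1c in total RNA had an adjusted p of 0.055.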
